A study of Mus musculus with 2 samples.

Results

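The receptors of the TREM family, the adaptors DAP12 and DAP10 and the kinase SYK were followed as 7 genes, Trem1, Trem2, Trem3, Treml2, Tyrobp, Hcst and Syk, and all 7 were found. They were chosen by gene name in the GENCODE M21 annotation, out of 55536 annotated genes, of which 22028 were protein-coding. They have 22 annotated transcript models of 141767 in all. RNA was measured by total RNA-seq, after removal of ribosomal RNA, in the nucleoplasmic fraction of macrophages that had been grown from the bone marrow of C57BL/6J mice and given 100 ng/ml Lipid A for 40 min. Lipid A is the part of bacterial lipopolysaccharide that the receptor TLR4 recognises. Both libraries, replicates 1 and 2, belong to this 1 group, and the labels give neither the age nor the sex of the mice. The labels name 1 donor for both, and the spread between replicates may therefore be technical. Cells without Lipid A, other times and whole cells were not analysed here, so every value is a level in stimulated nucleoplasm and not a response.

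TREM receptors are surface proteins of myeloid cells with an immunoglobulin-like domain outside the cell and, in most, a short tail that carries no signalling motif of its own. A charged residue in the membrane holds TREM1, TREM2 and mouse TREM3 to DAP12, the product of Tyrobp, whose tail carries an ITAM, a tyrosine motif that SRC family kinases phosphorylate and that then recruits SYK. DAP10, the product of Hcst, is a related adaptor whose tail binds PI3-kinase and GRB2. TREM1 is known to amplify inflammatory signals of neutrophils and monocytes, TREM2 to bind lipids and apolipoproteins and to dampen Toll-like receptor signals in macrophages, and TREML2 to be a family member without a known need for DAP12.

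The macrophage label was checked against its markers first. All 8 macrophage markers were detected, led by Lyz2, which encodes lysozyme, at 1820 and 1264 TPM in replicates 1 and 2, where TPM is a length-corrected share of all transcripts of a library. Detected means a TPM of at least 1 in both libraries, which 40.0% of protein-coding genes and 19.4% of all annotated genes reached. Of 40 markers of microglia, osteoclasts, lymphocytes, neutrophils, dendritic cells and mast cells, 3 were detected and 12 had 0 counts in both libraries. These were the neutrophil genes Elane and Ly6g, the NK cell genes Gzma, Klrb1c, Ncr1 and Prf1, the T cell genes Cd3e and Cd3g, the B cell gene Pax5, the mast cell gene Ms4a2, the osteoclast gene Calcr and the microglia gene Sall1. The detected ones were Cd4 at 22.2 and 16.1 TPM, and the osteoclast genes Acp5 at 6.40 and 2.93 TPM and Ctsk at 1.42 and 1.28 TPM. In the TPM derived from the FASTQ files, 4 of the 40 were detected. Beside Cd4 and Acp5 these were the T cell gene Cd3d at 2.38 and 4.28 TPM and the osteoclast gene Ocstamp at 3.34 and 2.38 TPM. The highest of the other lists were S100a9 of neutrophils at 1.34 and 0.87 TPM, P2ry12 of microglia at 1.04 and 0.80 TPM, Zbtb46 of dendritic cells at 0.47 and 0.65 TPM and Klrd1 of NK cells at 0.25 and 0.46 TPM. The highest of the remaining lists, Prss34 of mast cells and basophils and Cd79a of B cells, had at most 0.28 TPM. The summed level of these 40 markers was 37.8 and 25.7 TPM. Their part in the levels below was not tested. The libraries held 19630046 and 18434601 expected counts.

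A few sequences fix the places in the members on which the results turn. The first are the promoters of Trem2 and Trem1, neighbours in the same gene cluster whose levels lay far apart. Each shows the 250 bases before the RefSeq start on GRCm38.p6, the mm10 assembly, on the plus strand, at chr17:48346151-48346400 for Trem2 and at chr17:48232489-48232738 for Trem1. Capitals mark a match to GAGGAA, a core letter string of PU.1 and other ETS factors, or to its reverse complement TTCCTC.
Trem2 promoter: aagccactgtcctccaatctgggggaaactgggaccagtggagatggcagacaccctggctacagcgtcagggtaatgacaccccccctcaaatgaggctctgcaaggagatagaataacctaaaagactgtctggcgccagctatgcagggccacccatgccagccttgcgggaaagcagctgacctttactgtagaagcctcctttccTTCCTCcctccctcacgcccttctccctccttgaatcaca
Trem1 promoter: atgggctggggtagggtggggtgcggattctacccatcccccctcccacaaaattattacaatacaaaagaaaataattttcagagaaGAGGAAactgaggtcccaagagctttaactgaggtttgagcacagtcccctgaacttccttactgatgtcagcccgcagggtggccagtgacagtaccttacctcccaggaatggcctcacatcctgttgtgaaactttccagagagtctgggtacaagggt
Each promoter held 1 match, and 23.3% of 32841 mouse promoter windows of the same length held at least 1 on either strand. The Trem2 window also held 1 match to TGANTCA, a loose AP-1 string that allows any base in its middle, found in 6.75% of windows. The match reads TGAATCA, and a stricter AP-1 string was not counted. Neither held TTGCNNAA, a string of C/EBP factors, or TATAAA, that of the TATA box, which 9.57% and 12.4% of windows held. A match is a string of letters and not a site shown to be bound.

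The other sequences are the exon junctions by which models of Trem2 and Syk can be told apart, with the bases after the junction in capitals, on the plus strand of mm10. In Trem2 the first pair shows where exon 4 begins in its protein-coding models, at chr17:48351746-48351760 in the main model and 55 nt earlier, at chr17:48351691-48351705, in the longer one. The second pair shows the end of exon 1 joined to exon 2 in the spliced model, and running on into intron 1 in the retained-intron model.
Trem2 main coding model, exon 3 to exon 4: acacagcacctccagGAATCAAGAGACCTC
Trem2 long-exon-4 model, exon 3 to exon 4: acacagcacctccagGCAGGTTTCATCCTG
Trem2 retained-intron model, exon 1 into intron 1: tgctgctgatcacagGTGGGACCACAGGAG
Trem2 main coding model, exon 1 to exon 2: tgctgctgatcacagCCCTGTCCCAAGCCC
In Syk the first 3 junctions share their left side, chr13:52623262-52623276, and differ in what follows it. Syk-202 skips an exon of 69 nt at chr13:52624708-52624776, Syk-203 includes it, and Syk-204 runs into the intron. The fourth shows Syk-205 running from exon 2 into the next intron at chr13:52611253-52611267.
Syk-202, across the skipped exon: aatgcccatcccgtgCCTGCCCCACCCCAA
Syk-203, into the exon: aatgcccatcccgtgACTTGGTCACCGGGT
Syk-204, into the intron: aatgcccatcccgtgGTAAGTATTCTCTGA
Syk-205, into the intron: acctggaaccttcagGTGAGTCTGCTGGGC
The whole exon that Syk-202 lacks is shown because it separates the known short and long forms of the kinase.
Syk exon of 69 nt: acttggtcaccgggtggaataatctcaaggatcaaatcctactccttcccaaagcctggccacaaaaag

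Of the 7 genes, 5 were detected, against the 40.0% of protein-coding genes given above. At a TPM of at least 0.1 the count was 6, against 53.7%, and at a TPM of at least 5 it was 3, against 22.3%. In the FASTQ-derived TPM 5 were detected as well, against 41.4%. The kinase, 1 receptor and 1 adaptor made up the abundant set, Syk, Trem2 and Tyrobp. Hcst and Treml2 lay just over the threshold, Trem1 lay under it, and Trem3 had no counts at all.

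**Figure D1:**
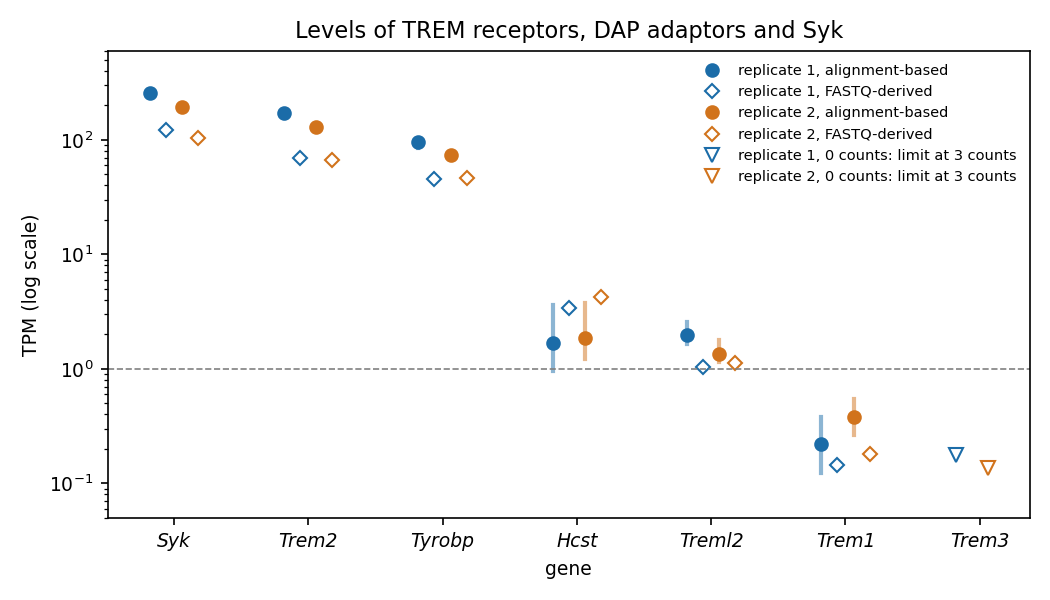
Level of each gene in TPM on a log axis, with replicate 1 left of replicate 2. Filled circles are alignment-based values with the deposited credibility interval as a bar where it is wider than the symbol. The intervals surround the deposited posterior mean TPM and not the plotted value, which for Syk lies outside them in both replicates. Diamonds are FASTQ-derived values, triangles mark the limit at 3 counts for Trem3, and the dashed line is 1 TPM. Syk, Trem2 and Tyrobp stand between 74.4 and 256 TPM in the alignment-based table, and the other 4 genes below 2 TPM.

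Among the receptors, Trem2 (ENSMUSG00000023992, chr17:48346401-48354147) was the most abundant. It had 170.5 TPM in replicate 1 and 129.85 TPM in replicate 2, a mean of 150.2 ± 28.7 TPM (SD, n = 2), from 4693 and 4359 expected counts. Only 233 protein-coding genes had a higher mean. Treml2 (chr17:48299498-48312533) had 1.97 and 1.35 TPM, a mean of 1.66 ± 0.44 TPM (SD, n = 2), from 134 and 124 expected counts. Its credibility intervals, 1.65 to 2.56 TPM and 1.15 to 1.79 TPM, overlapped each other and stayed above 1 TPM.

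Trem1 (chr17:48232768-48246924), the receptor best known for amplifying inflammation, had 0.22 and 0.38 TPM, a mean of 0.30 ± 0.11 TPM (SD, n = 2), from 12 and 30 expected counts. Both values lay under the detection threshold, and 49.5% of protein-coding genes had a lower mean. Trem3 (chr17:48247777-48258841), which begins 852 bp past the end of Trem1, had 0 counts in both libraries and in the FASTQ-derived tables too. A count of 0 allowed up to 0.177 TPM in replicate 1 and 0.137 TPM in replicate 2, taken at 3 counts. Such limits and the credibility intervals cover counting error only.

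Within each library Trem2 stood 775-fold above Trem1 in replicate 1 and 342-fold in replicate 2, which is 9.60 and 8.42 on the log2 scale. The FASTQ-derived tables gave ratios of 474-fold and 363-fold. The gap was large in both libraries and in both kinds of table, but its size depended on the 12 to 30 counts of Trem1. Trem2 stood 86.5-fold and 96.2-fold above Treml2, and Treml2 stood 8.95-fold and 3.55-fold above Trem1. With the FASTQ-derived tables Treml2 stood 7.16-fold and 6.12-fold above Trem1.

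The receptor genes lie together on chromosome 17, and the levels of the whole cluster were set beside the members. Of the cluster's 4 other listed genes, 2 were detected. Treml1, known for its part in platelets, lies 5768 bp past Trem2 and had 7.45 and 9.43 TPM. The gene annotated as B430306N03Rik, for which RefSeq gives Treml6 as a synonym, lies 3607 bp past Treml2 and had 5.72 and 4.49 TPM. Treml4 had 0.03 and 0.54 TPM from 1 and 9 counts, and was the gene of this list whose replicates lay furthest apart in fold. 9830107B12Rik, for which RefSeq gives Trem5 as a synonym, had 0 counts in both alignment-based tables, yet 1.40 and 0.98 TPM in the FASTQ-derived ones, so the tables differed over whether it was seen at all. Trem2 held 91.1% and 88.4% of the summed TPM of all annotated genes of the cluster, from 9830107B12Rik to Treml1.

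**Figure D2:**
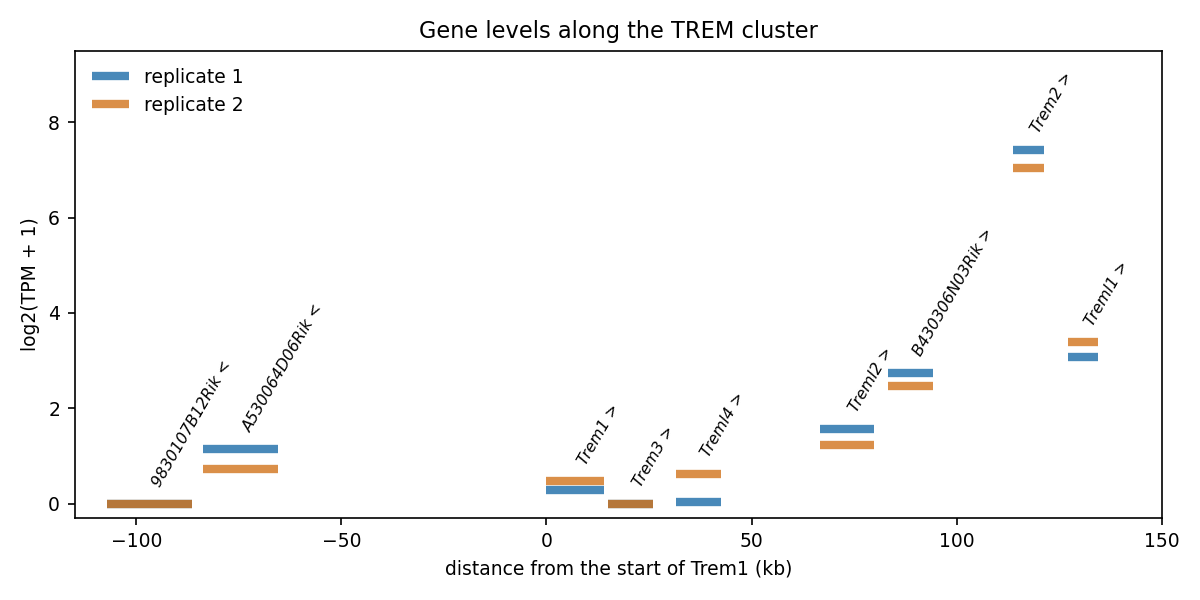
Level of each protein-coding gene of the TREM cluster, as log2(TPM + 1), against distance from the start of Trem1 in kb, with bar length showing gene length and arrowheads the strand. Blue is replicate 1 and orange replicate 2. Trem2 stands far above its neighbours in both replicates, while Trem3 and 9830107B12Rik lie at 0 in both.

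Of the adaptors, Tyrobp (ENSMUSG00000030579, chr7:30413760-30417585) was abundant. It had 96.2 and 74.4 TPM in replicates 1 and 2, a mean of 85.3 ± 15.4 TPM (SD, n = 2), from 785 and 757 expected counts. A total of 442 protein-coding genes had a higher mean. Hcst (chr7:30417712-30419854) had 1.69 and 1.87 TPM, a mean of 1.78 ± 0.13 TPM (SD, n = 2), from only 7 and 11 expected counts. Its credibility intervals, 0.95 to 3.63 TPM and 1.21 to 3.73 TPM, show that the small SD understates its uncertainty, and the lower bound of replicate 1 fell under the detection threshold.

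The adaptor genes are convergent neighbours whose 3' ends lie 126 bp apart, yet Tyrobp stood 56.9-fold and 39.8-fold above Hcst in the alignment-based TPM. In the FASTQ-derived TPM it stood 13.4-fold and 10.9-fold above it. Hcst was the only member whose FASTQ-derived level was the higher one, at 2.02 and 2.27 times the alignment-based TPM. Over all detected protein-coding genes the median of this ratio was 0.559 and 0.703. The FASTQ-derived tables gave Hcst 49 and 69 estimated counts. Nfkbid, which encodes a nuclear IκB protein, lies 1877 bp from Hcst on the other side and had 142 and 117 TPM. The strand setting of the quantification is not given in the sources used here, so reads that run past the end of a convergent gene cannot be told apart from the neighbour's own.

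Syk (ENSMUSG00000021457, chr13:52583173-52648792), the kinase that binds the phosphorylated ITAM of DAP12, was the most abundant member by gene TPM, which sums all its annotated models. It had 256 and 193 TPM, a mean of 224 ± 44.3 TPM (SD, n = 2), from 19688 and 21065 expected counts. Only 142 protein-coding genes had a higher mean. Syk stood 2.66-fold and 2.59-fold above Tyrobp, and Trem2 stood 1.77-fold and 1.74-fold above Tyrobp. By alignment-based gene TPM the proportions among receptor, adaptor and kinase RNA were thus close between the libraries. In the FASTQ-derived TPM Syk stood 2.70-fold and 2.25-fold above Tyrobp, and Trem2 1.51-fold and 1.43-fold.

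By gene TPM the order from high to low was Syk, Trem2, Tyrobp, Hcst, Treml2, Trem1 and Trem3. The ranges of the replicate values did not overlap between neighbours in this order, except for Hcst and Treml2, whose order cannot be read from the alignment-based TPM. In the FASTQ-derived TPM Hcst lay above Treml2 in both libraries, at 3.41 and 4.24 TPM against 1.04 and 1.12 TPM. The credibility intervals of Trem1 and Trem3 overlapped in replicate 1, where that of Trem1 began at 0.123 TPM and that of Trem3 reached 0.169 TPM. They lay apart in replicate 2, at 0.262 TPM and above for Trem1 and up to 0.132 TPM for Trem3. The gene counts of all 7 members were whole numbers to within 0.005 in both libraries (Trem3 at 0), as were those of 72.5% of detected protein-coding genes. A whole count is what reads assigned to 1 gene alone give.

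TPM was higher in replicate 1 for Syk, Trem2, Tyrobp and Treml2, but so it was for most genes, with a median ratio of 1.40 over detected protein-coding genes. When TPM was rescaled over annotated genes with an effective length of at least 200 nt, that median was 0.979, and Syk had 688 and 743, Trem2 459 and 499.9, and Tyrobp 259 and 287 rescaled TPM. The rescaling divides all genes of a library by 1 number, so the order of the replicates in TPM says nothing particular to these genes. On TMM-scaled counts the log2 ratio of replicate 1 over replicate 2 was 0.01 for Trem2, 0.01 for Treml2, -0.05 for Tyrobp and -0.20 for Syk. These lay between the 5th and the 95th percentile of protein-coding genes, at -0.62 and 0.68. Trem1 lay outside it at -1.35, with a counting interval from -2.36 to -0.47, lower than all but 0.529% of protein-coding genes. With unscaled FASTQ-derived TPM the ratio was -0.33 for Trem1 and 0.24 for Syk, beside a median of 0.16 over detected protein-coding genes. Hcst had -0.67, with a counting interval from -2.06 to 0.58. The RNA input, 1 µg for replicate 1 and 500 ng for replicate 2, differed with the replicate, and their effects cannot be told apart.

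Nuclear RNA can hold transcripts that are not fully spliced, so the models of each gene were compared next. Trem2 reads came mostly from its spliced, protein-coding models. The main coding model held 69.7% and 71.4% of the gene's TPM, and the model with the longer exon 4 held 18.9% and 20.0%. Among the coding models alone, the long-exon-4 model held 21.3% and 21.9% of TPM and 20.7% and 21.2% of counts, and the FASTQ-derived TPM gave 22.0% and 21.8%. This share thus varied little between replicates, measures and tables. The annotated coding sequence is 747 nt in the long-exon-4 model and 681 nt in the main one.

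The retained-intron model of Trem2 keeps intron 1, chr17:48346596-48348456, and extends 1874 nt past the end of the main coding model. It held 11.0% and 8.66% of the gene's TPM but 39.3% and 33.7% of its expected counts. TPM divides by length, and 78.1% of the 4784 nt of the retained-intron model lies outside the main coding model, which is 1088 nt long. The mean share by TPM, 9.83 ± 1.65% (SD, n = 2), lay below the median of 26.0% over 5736 detected protein-coding genes with a retained-intron model. By counts the mean share of 36.5 ± 3.99% lay above the median of 14.6%, so the place of Trem2 among other genes depends on the measure. The tables do not say how many of these reads fell in intron 1 and how many past the usual end.

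**Figure D3:**
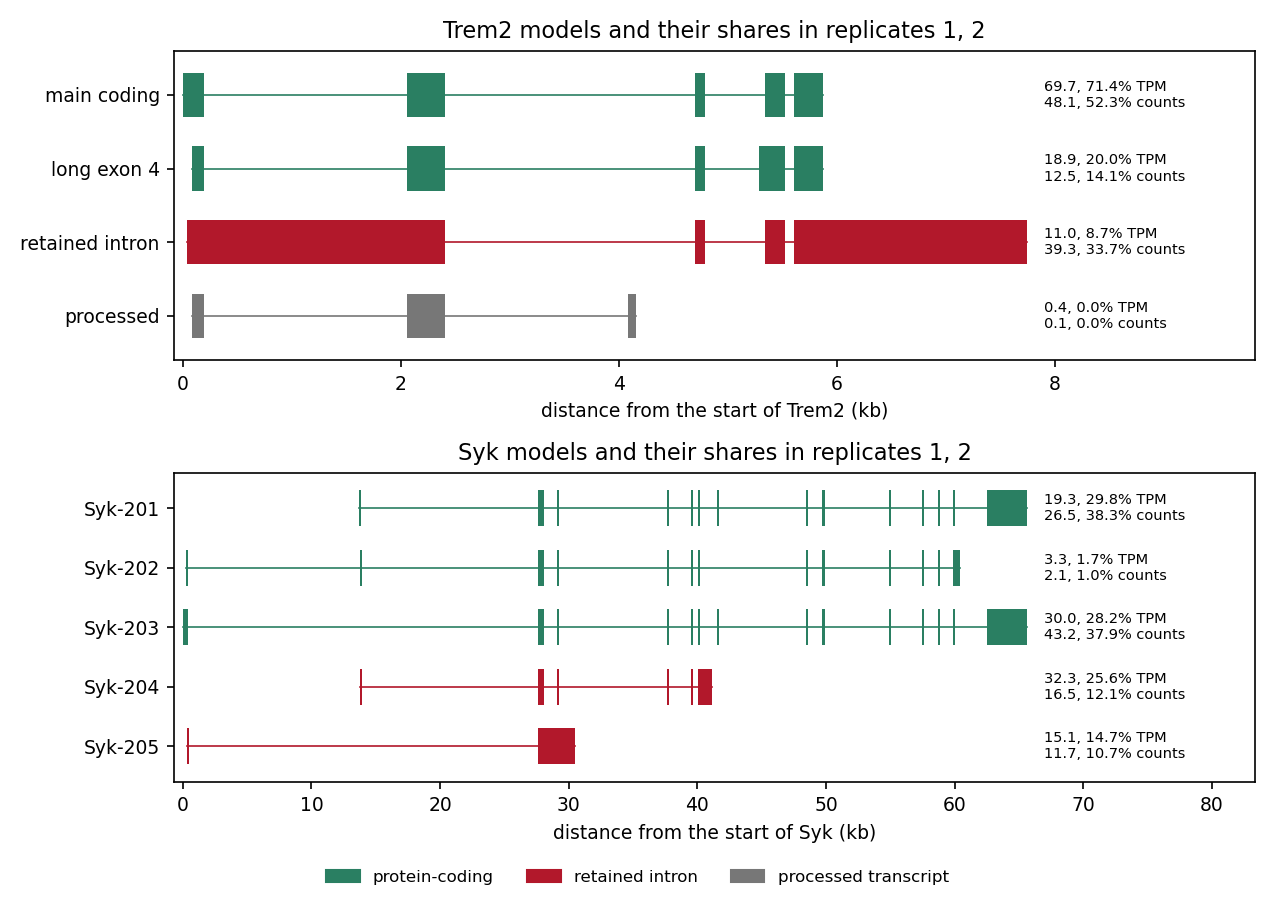
Exons (boxes) and introns (lines) of the Trem2 and Syk models against distance from the gene start in kb, coloured by annotated type, with each model's share of the gene's TPM and expected counts in replicates 1, 2. The Trem2 retained-intron model joins exons 1 and 2 into a single block and runs beyond the other models, and its share is larger by counts than by TPM.

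Syk held more of its TPM in retained-intron models than Trem2, and less of its counts. Syk-204 and Syk-205 together held 47.4% and 40.3% of TPM and 28.2% and 22.7% of counts. The mean by TPM, 43.8 ± 5.04% (SD, n = 2), was higher than in 77.6% of the genes compared, and the mean by counts, 25.5 ± 3.85%, than in 66.4%. Both measures therefore placed Syk above the median gene. The place of Syk above Trem2 by gene TPM includes these models. Over coding models alone, Trem2 lay above Syk in both libraries in the alignment-based TPM. In the FASTQ-derived TPM of coding models, Syk stayed above Trem2 in both. Syk-204 ends 1063 nt into the intron that follows exon 6, and Syk-205 keeps 1042 nt of intron 2 and ends 1230 nt past exon 3.

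Syk also has alternative first exons, whose starts lie 13.68 kb apart. Models with the upstream first exon, Syk-202 and Syk-203, held 63.3% and 50.1% of the coding models' TPM, and 63.1% and 50.5% of their counts. The FASTQ-derived TPM gave 64.8% and 53.9%. The upstream share was thus higher in replicate 1 by each of the 3 measures, and Syk-201, with the downstream first exon, held the rest. Syk-202 lacks the 69-nt exon, as does the short form of the kinase called SYKB. It held 6.26% and 2.87% of the coding models' TPM, and 2.96% and 1.33% of their counts. In the FASTQ-derived TPM it held 11.1% and 6.02%. Models with the exon made up most of the coding RNA by every measure. Syk-202 also ends at a different 3' end from Syk-201 and Syk-203, so its share does not count the skipped exon alone. Its annotated coding sequence is 1749 nt, against 1887 nt in Syk-201 and Syk-203. That gap is larger than the 69-nt exon, so the coding sequences differ by more than this exon.

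**Figure D4:**
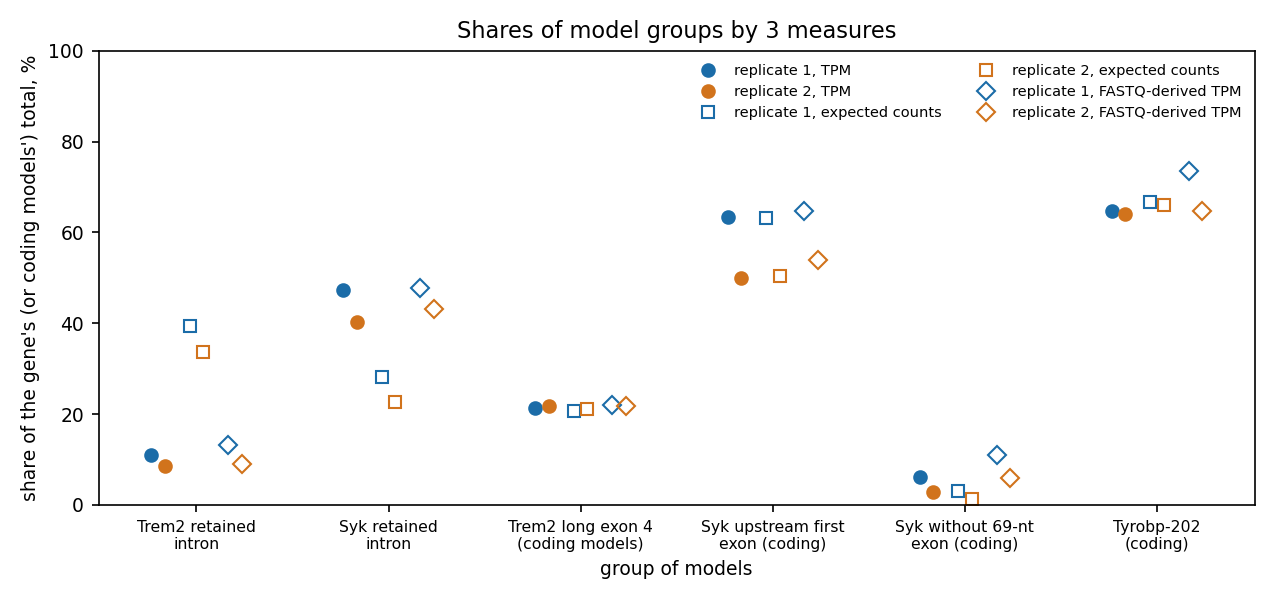
Share of a gene's total, or of its coding models' total, in percent, held by 6 groups of models, with blue for replicate 1 and orange for replicate 2. Circles are alignment-based TPM, squares expected counts and diamonds FASTQ-derived TPM. The longer exon 4 of Trem2 stays between 20.7% and 22.0% by all measures, while the retained-intron share is higher by counts than by TPM in Trem2 and lower in Syk.

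Tyrobp had no annotated retained-intron model. Its coding models Tyrobp-202 and Tyrobp-201 held 64.3% and 63.9%, and 34.9% and 36.1%, of TPM. The model annotated for nonsense-mediated decay, Tyrobp-203, which adds an exon of 67 nt, took 6 counts in replicate 1 and 0 in replicate 2. These were 0.728% and 0% of TPM, and a count of 0 of 757 allowed a share of up to 0.505% (95% Wilson interval). The FASTQ-derived TPM gave Tyrobp-203 1.22% and 1.83%, so that limit holds for the alignment-based counts only. Among the annotated models, the spliced coding ones thus held nearly all of the Tyrobp TPM in both libraries. With no retained-intron model to take reads, these shares cannot tell how much Tyrobp RNA was unspliced.

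For the rare members, few counts lay behind each share. The retained-intron model of Hcst held 4 of 7 counts in replicate 1 and 6 of 11 in replicate 2, with 95% Wilson intervals of 25.0% to 84.2% and 28.0% to 78.7%. By TPM it held 49.1% and 51.9%, so Hcst did not pass 50% in both libraries, as 12.6% of the 5736 genes did. The coding remainder went wholly to Hcst-203 in replicate 1 and wholly to Hcst-201 in replicate 2, models that differ by an exon of 24 nt. The longest coding model of Treml2 held 73.5% and 75.4% of its TPM. The Trem1 model that includes the second exon, of 357 nt, held 76.2% and 100% of the TPM of Trem1, the 100% resting on 30 counts. A processed pseudogene on the opposite strand inside Trem1, AC241601.2, had 2 and 6 counts. It lies within an intron of Trem1 and overlaps no annotated Trem1 exon. Without a stated strand setting, its reads cannot be told apart from Trem1 reads of that intron.

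The other genes of the pathway were listed by role, and 57 of 82 were detected, against 40.0% of protein-coding genes. The median level of the 82 was 9.05 and 7.07 TPM in replicates 1 and 2, and the median of all protein-coding genes was 0.325 TPM. Of 19 other receptors listed for pairing with DAP12 or DAP10, 7 were detected. They were led by the sialic acid receptor Cd33 at 52.5 and 42.4 TPM and by Cd300c2 at 47.0 and 22.2 TPM, followed by Clec5a at 15.6 and 11.8 TPM and Cd200r4 at 11.6 and 9.36 TPM. None of these reached the level of Trem2. Among the 5 with 0 counts were the natural killer cell receptors Klra4, Klra8 and Klrc2. So was Ncr1, for which pairing with DAP12 or DAP10 is not established. The 1 detected gene of 5 other ITAM adaptors was Fcer1g, the Fc receptor gamma chain, at 126 and 128 TPM, above Tyrobp in both libraries, while Cd3e had 0 counts.

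Reported ligands and membrane partners of TREM1 and TREM2 were detected in 4 of 7 cases. Apoe, whose apolipoprotein binds TREM2, had 873 and 307 TPM, the widest spread among these leading genes. The plexin Plxna1 had 50.6 and 38.1 TPM, the nuclear protein gene Hmgb1 11.9 and 11.0 TPM, and the semaphorin Sema6d 3.77 and 1.90 TPM. All 7 genes of the proteases that cut TREM2 at the membrane were detected. Adam17, a sheddase, led at 120.3 and 61.1 TPM, ahead of the gamma-secretase genes Ncstn at 43.8 and 29.9 TPM and Psen2 at 25.8 and 21.6 TPM, and of the sheddase Adam10 at 19.5 and 11.5 TPM.

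Around SYK, 6 of 9 kinase genes were detected. Lyn, a SRC family kinase that phosphorylates ITAMs, had 92.5 and 61.0 TPM, the TEC family kinase Tec 58.7 and 47.6 TPM, and the TEC family kinase Btk 8.18 and 5.42 TPM. Each of these lay below Syk. Downstream of SYK, 20 of 21 genes were detected. The paracaspase gene Malt1, which acts with Card9 and Bcl10, had 429 and 361 TPM, and the kinase Prkcd 253 and 160 TPM. The PI3-kinase subunit gene Pik3r1 had 152 and 96.0 TPM, and the PI3-kinase adaptor gene Pik3ap1 143 and 99.3 TPM. Malt1 was the only gene of this list above Syk in both libraries.

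All 10 genes of the dampening list were detected. Inpp5d, which encodes the phosphatase SHIP1, had 89.3 and 67.7 TPM, the receptor phosphatase Ptprj 60.5 and 36.4 TPM, and the ubiquitin ligases Cbl 51.3 and 35.1 TPM and Cblb 45.5 and 32.6 TPM. Nearest to the members in mean log2(TPM + 1) among the 82 genes were Prkcd for Syk, Fcer1g for Trem2, Adam17 for Tyrobp, Src for Hcst and for Treml2, and Siglech for Trem1. Trem3, at 0, was tied with the 7 genes that had 0 counts in both libraries, among them 9830107B12Rik. With 2 libraries of 1 group this is a likeness of level only. In bulk samples fewer cells with a transcript and less RNA per cell cannot be told apart.

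**Figure D5:**
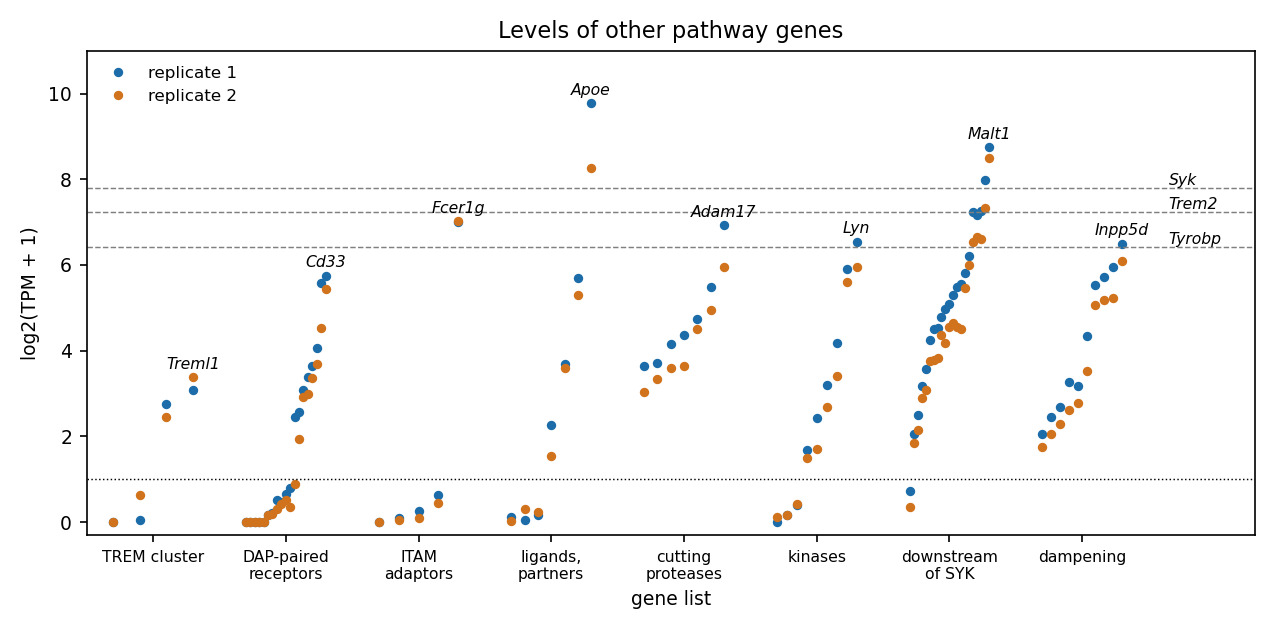
Levels of the 82 other pathway genes as log2(TPM + 1), grouped by list and sorted by mean within a list, with blue for replicate 1 and orange for replicate 2. The dotted line is 1 TPM, dashed lines are the means of Syk, Trem2 and Tyrobp, and the highest gene of each list is named. The lists downstream of SYK, of cutting proteases and of dampening genes lie almost wholly above 1 TPM, and Apoe and Malt1 above Syk.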

How the data were processed

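Nucleoplasmic RNA was measured in 2 libraries of 1 group. The authors deposited a gene table and a transcript table per library made from an alignment, and a transcript table made from the FASTQ files (FASTQ-derived). The units are named per the file headers: expected counts, TPM, FPKM and credibility intervals in alignment-based tables, estimated counts and TPM in FASTQ-derived ones. The authors' TPM values share a fixed total over every feature of a table after correction for effective length. The authors' FPKM values were not used for levels. The deposited model percent columns were not needed, because shares in percent were computed here from the deposited TPM and counts. Per the labels the build was mm10. Neither aligner nor quantifier nor strandedness is given in the sources used here. Gene and transcript identifiers were matched to GENCODE M21.

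Features that name no annotated gene held 0.672% and 0.196% of the counts of replicates 1 and 2 and were left out. FASTQ-derived levels were summed over a gene's models. The levels were the deposited TPM of each library, with mean and SD (n = 2). Rescaled TPM was divided by the summed TPM of annotated genes with an effective length of at least 200 nt in both libraries. Replicate ratios used expected counts rounded to whole numbers, edgeR 4.0.16 TMM scaling (R 4.3.3) and a prior count of 1, and were set beside 11348 protein-coding genes with a mean count of at least 10. DESeq2 1.42.0 size factors were an alternative. Ratio computation was tested on simulated data. Counting intervals have a confidence level of 95%. With 1 group, no test and no p-value was computed. Promoters came from RefSeq (GRCm38.p6), where 4 of the 7 members had an entry. Of the upstream windows of Syk, the first begins within an annotated exon. The other has 221 bases outside exons, at chr13:52596632-52596852. Neither is shown.

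The members and gene lists were chosen with earlier results of these data known. Named beside the members were the 4 highest genes of each pathway list, up to 3 with 0 counts, the highest and the zero-count genes of each marker list, and neighbours within 10 kb. A gene that this rule names is not reported here. Intervals and limits cover counting error only.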

Additional observations from a re-analysis of the deposited data

How the results depend on the processing

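The replicate ratio (log2) of Syk was 0.24 with FASTQ-derived TPM, against -0.20 with TMM-scaled counts, and that of Trem1 -0.33, against -1.35. Of 55 recomputed values for the detection of members and pathway genes, the members' levels and their retained-intron shares, 36 stayed within the spread between replicates or within 1.5 times the count, and 19 moved. For levels and shares, a value with 1 replicate left out lies within that spread by construction when n = 2. Such values count among the 36 but could not have moved. At a threshold of 5 TPM 3 members were detected. In the FASTQ-derived TPM the mean levels were 0.164 for Trem1, 67.5 for Trem2, 1.08 for Treml2, 45.9 for Tyrobp, 3.83 for Hcst and 114 for Syk. In TPM rescaled over genes of effective length of at least 200 nt they were 1.03, 479.5, 5.25, 272.8, 5.88 and 715.4. The posterior mean was 0.05 TPM for Trem3 and 2.31 TPM for Hcst. The retained-intron share by counts was 36.5% for Trem2, 25.5% for Syk and 53.7% for Hcst, and by FASTQ-derived TPM 39.3% for Hcst. By counts Trem2 lay above Syk and above the median gene, and by TPM below both. The cause was not tested. With either replicate left out 5 members were detected. Trem3 had 0 counts, so its ratio to Trem1 and its replicate ratio could not be given. No paired analysis was possible because both libraries belong to 1 group. The depth limits Hcst, with 7 and 11 counts, and Trem1, with 12 and 30.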
